A study of Mus musculus with 6 samples.

Results

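The nuclear genes of oxidative phosphorylation were examined in ATAC-seq data of white preadipocytes, as the set of promoters that builds the respiratory chain. Members were all protein-coding genes of the GENCODE M21 annotation (mouse genome mm10) with symbols Nduf followed by a, b, c, s or v and a number, Sdha to Sdhd, Cyc1, or symbols beginning with Uqcr, Cox4 to Cox8, or Atp5, except Cox7a1 and Cox8b. This gave 82 of 21728 protein-coding genes, with 36 in complex I, 4 in complex II, 9 in complex III, 16 in complex IV and 17 in complex V. ATAC-seq uses the transposase Tn5 to insert adapters into open chromatin. The libraries came from 3 wild type (WT) and 3 DKO cultures, the latter Hmgn1-/- and Hmgn2-/- in the germline, so that every cell lacks both nucleosome-binding proteins, HMGN1 and HMGN2. All 6 were undifferentiated preadipocytes at day 0, grown on collagen from the inguinal fat of mice aged 8 to 12 weeks. All were labelled C57BL/6, and the study's list of strains gives the DKO line a name that begins with B6.Cg. All were free of the cocktail later used for browning, the question the study was built around. No source used here says which animals or how many stand behind a library, so the p-values measure the spread between these cultures.

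Oxidative phosphorylation passes electrons from NADH (complex I) or succinate (complex II) through complex III to oxygen at complex IV, and the proton gradient so formed drives ATP synthase, complex V. Apart from a few core subunits made in the mitochondrion, the subunits are encoded by nuclear genes, whose promoters are known for binding sites of the factors NRF1 and GABP (an ETS protein) and of YY1 and the estrogen-related receptors (ERR). White adipocytes that brown are known to gain mitochondria and these complexes.

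Promoter sequences of 64 members were found in RefSeq (GRCm38.p6), from 250 bases before to 50 after a start site, and 63 of these genes were also tested for accessibility. Among the members with no matched entry were Atp5a1, Atp5f1, Atp5mpl, Atp5s, Cox4i1, Cox4i2, Cox6a2, Cox6c, Cox8c, Cyc1, Ndufa2, Ndufb9, Ndufs1, Sdhc, Uqcrb, Uqcrc2 and Uqcrq. Sets of letters for 8 motifs were searched on both strands, and matches are a description of the letters only. The NRF1 letters (GCGCANGCG) occurred in 19 of 63 members (30.2%), against 13.4% of 10795 promoters of all genes tested and 12.1% of 58 ribosomal protein promoters. The ETS/GABP letters (CCGGAAG) occurred in 16 members (25.4%), against 17.3% of all and 43.1% of ribosomal protein promoters. At least 1 of these 2 motifs was found in 29 members, and both in Atp5h, Atp5k, Atp5l, Cox6a1, Sdhd and Uqcr11.

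The NRF1 letters can be read on both strands of 1 palindrome of 10 bases, which 5 members (7.94%) and 2.01% of all promoters held. These are shown for the subunit c gene Atp5g2, the subunit e gene Atp5k, the complex IV gene Cox6a1, the complex I accessory subunit Ndufa11 and the complex III core protein Uqcrc1, each with 10 flanking bases in the direction of the gene and the palindrome in capitals.
Atp5g2 (chr15:102671070-102671099, minus strand): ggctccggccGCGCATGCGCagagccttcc
Atp5k (chr5:108434430-108434459, minus strand): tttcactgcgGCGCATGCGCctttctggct
Cox6a1 (chr5:115349101-115349130, minus strand): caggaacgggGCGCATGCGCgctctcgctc
Ndufa11 (chr17:56717692-56717721, plus strand): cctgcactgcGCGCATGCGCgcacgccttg
Uqcrc1 (chr9:108936668-108936697, plus strand): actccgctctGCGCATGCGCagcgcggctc

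The YY1 letters (AAGATGGCG) were in 7 members (11.1%) and in 3.08% of all promoters, and 5.17% of those of ribosomal protein genes. In 6 of the 7 they lay after the start site on the gene's own strand, with the first base at position 23 to 36. Of the 332 promoters with the letters among all genes, 56.3% had them after the start site on the gene's own strand, with first bases from 1 to 40. They are in capitals below, and only in Atp5j did they lie before the start site.
Atp5j (chr16:84835046-84835074, minus strand): aagtgtaggaAAGATGGCGgagtcttagc
Atp5j2 (chr5:145191500-145191528, minus strand): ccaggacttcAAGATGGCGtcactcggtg
Ndufa9 (chr6:126849097-126849125, minus strand): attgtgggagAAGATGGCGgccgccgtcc
Ndufc1 (chr3:51408915-51408943, minus strand): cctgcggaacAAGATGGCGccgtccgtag
Ndufs4 (chr13:114388045-114388069, minus strand): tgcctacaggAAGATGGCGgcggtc
Ndufs6 (chr13:73328433-73328459, minus strand): ggtcaccggcAAGATGGCGgcggtgct
Ndufs7 (chr10:80249463-80249491, plus strand): ggccgaggccAAGATGGCGgcgctggcgg

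Longer stretches before the start site, free of annotated exons, are given for 4 members that show how these motifs are placed. Capitals mark any of the 8 motifs. Uqcrh, the hinge protein of complex III, has the ETS/GABP letters, read on the opposite strand, next to its start site and a CCAAT motif further upstream. Atp5g3, another subunit c gene, and Sdhd were the 2 members with the ERR letters (TCAAGGTCA), which were in 0.185% of all promoters. In Atp5g3 they lie on the opposite strand after CCAAT. Cox6a1 has a second NRF1 match, with SP/KLF (GGGCGG) and CCAAT letters, and Uqcr11, a small subunit of complex III, has 1 ETS/GABP match.
Uqcrh (chr4:116075072-116075220, minus strand): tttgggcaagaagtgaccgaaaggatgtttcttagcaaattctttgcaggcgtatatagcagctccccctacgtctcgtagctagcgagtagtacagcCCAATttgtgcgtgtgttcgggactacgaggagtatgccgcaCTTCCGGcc
Atp5g3 (chr2:73911327-73911476, minus strand): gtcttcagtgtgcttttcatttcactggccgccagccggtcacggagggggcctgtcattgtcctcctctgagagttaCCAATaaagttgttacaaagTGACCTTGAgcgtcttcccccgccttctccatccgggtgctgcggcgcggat
Cox6a1 (chr5:115348982-115349108, minus strand): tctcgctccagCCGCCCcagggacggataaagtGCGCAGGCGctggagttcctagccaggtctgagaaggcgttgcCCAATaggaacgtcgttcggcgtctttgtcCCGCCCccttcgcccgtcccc
Uqcr11 (chr10:80406831-80406971, minus strand): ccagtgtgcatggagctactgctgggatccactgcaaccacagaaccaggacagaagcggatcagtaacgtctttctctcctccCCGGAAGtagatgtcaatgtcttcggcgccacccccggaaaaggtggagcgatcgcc

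The SP/KLF letters were in 38.1% of the members, 65.3% of all promoters and 58.6% of ribosomal protein promoters. The cyclic AMP response letters (TGACGTCA) were in 6.35%, 3.28% and 6.90%, in the same order. TATAAA was in 7.94% of the members, 7.16% of all and 8.62% of ribosomal protein promoters, and CCAAT in 42.9%, 38.8% and 34.5%. Matches of different motifs shared bases in 1 member, Ndufs3. The members' promoters had a median GC content of 57.3%, against 61.0% for all genes tested and 57.8% for ribosomal protein genes.

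**Figure D1:**
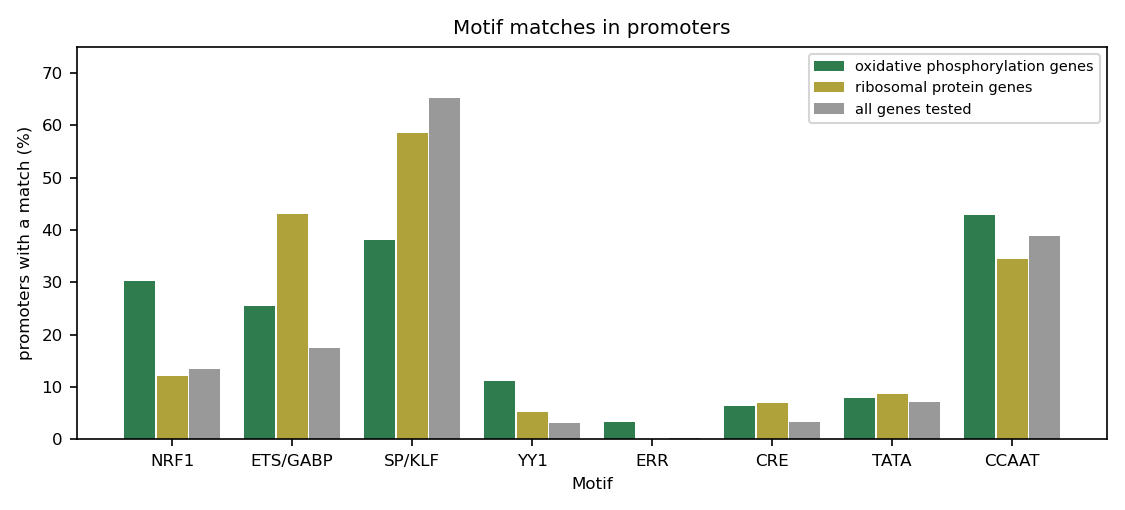
Share of promoters (percent, vertical axis) with at least 1 match of each of 8 motifs (horizontal axis) in 63 oxidative phosphorylation genes, 58 ribosomal protein genes and 10795 genes tested. NRF1 letters were in 30.2% of the members against 13.4% of all promoters, and SP/KLF letters in 38.1% against 65.3%.

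Each library is represented by the authors' list of peak summits, between 299433 and 299620 per library. The value of a promoter is the highest fold enrichment among summits within 1 kb of any start site of the gene. Fold enrichment is the ratio of the pileup, the sequencing signal counted at the summit, to the local background, with 1 added to each. The median pileup at a promoter summit was 75 in WT replicate 1, 64 in WT replicate 2 and 98 in WT replicate 3. In the DKO replicates it was 72, 77 and 55 in the same order. The deepest library by this measure was WT replicate 3, and the shallowest was DKO replicate 3. As a check of the labels, the Hmgn2 promoter was listed at 7.89, 7.53 and 9.45 in WT and in no DKO library (limma adjusted p = 0.0024), whereas the Hmgn1 promoter was listed in all 6 and does not test the deletion. Without WT replicate 1 or 3 the adjusted p of Hmgn2 was 0.0603 and 0.0673. Of 10 preadipocyte and stromal markers, 8 had a listed promoter in every library. None of 5 markers of mature adipocytes did, and Plin1, Ucp1 and Lep were listed in none. Of 6 blood cell markers, 1 was listed in every library, as were 3 of 4 endothelial markers (Pecam1, Tek and Kdr). Accessibility in a bulk culture cannot tell fewer cells of a type from a lower level per cell.

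Promoters of the respiratory chain were open in all 6 libraries with few exceptions. Of the 82 members, 78 (95.1%) had a listed summit in every library, compared with 61.0% of all protein-coding genes and 96.3% of 81 ribosomal protein genes. Complexes I, II, III and V were listed completely. The exceptions were 4 genes of complex IV, all isoforms known for use in restricted tissues. Cox4i2, the lung and hypoxia isoform of subunit 4, was listed at 4.99 in WT replicate 3 and at 5.57 in DKO replicate 3 only. Cox6a2, the heart and muscle isoform, had its nearest summit between 1957 and 1969 bp away in all 6 libraries. Cox7b2 and Cox8c, known from testis, had no summit within 1 kb either, with the nearest to Cox8c between 13345 and 13406 bp away. Cox6b2, also a testis isoform, was listed in all 6 at 5.77, 5.41 and 9.89 in WT and 4.83, 7.09 and 3.90 in DKO, the second lowest of the members listed throughout, and the groups overlapped.

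Both genes that the definition leaves out are known from heart, muscle and brown fat. Cox7a1 was listed in every library, at 10.9, 10.7 and 13.6 in WT and 10.2, 15.1 and 8.996 in DKO, so that the DKO values enclosed those of WT. Cox8b had no summit within 1 kb in any library, and its nearest lay 1091 bp away in WT replicate 1 and between 2305 and 3041 bp in the others. Of 2 further relatives, Ndufab1, the acyl carrier subunit, was listed in all 6, and Ndufa4l2 in WT replicate 1 only.

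Accessibility was high. Over the 78 members listed throughout, median fold enrichment was 17.3, 15.4 and 19.6 in WT and 16.02, 16.06 and 14.8 in DKO, with means of 17.4 ± 2.10 and 15.6 ± 0.731 (SD, n = 3 each). The DKO values lay within the range of WT apart from DKO replicate 3, the shallowest library. The corresponding means over all genes listed throughout were 12.8 ± 1.48 and 11.95 ± 0.490, and those of ribosomal protein genes 16.1 ± 1.75 and 14.9 ± 0.386.

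**Figure D2:**
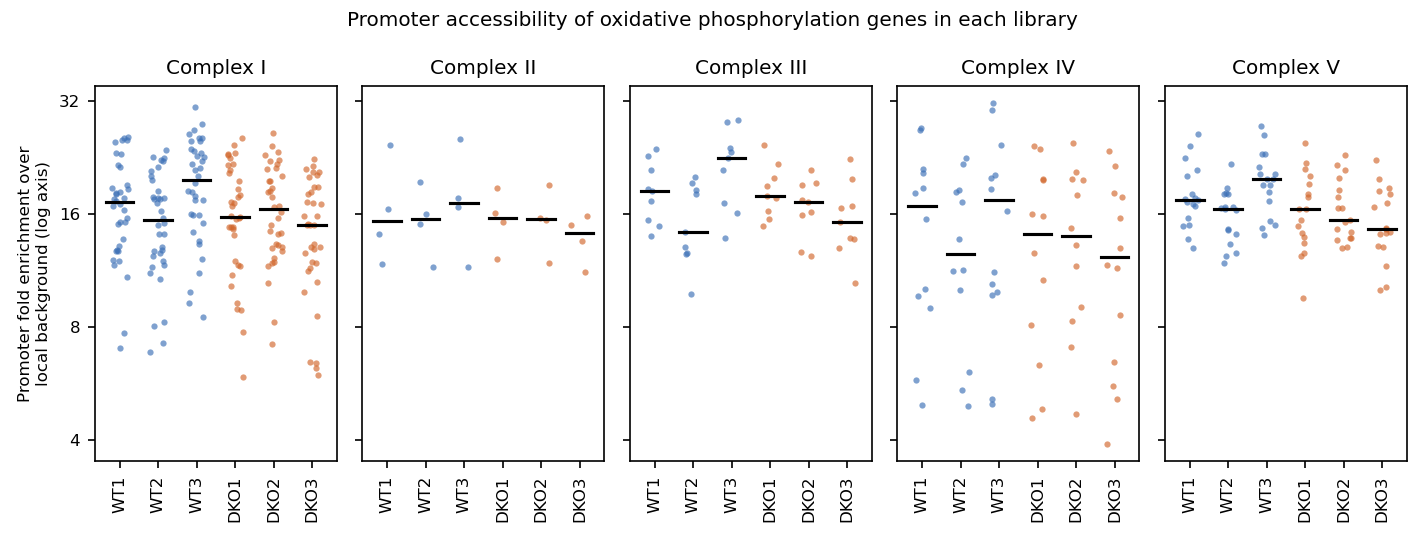
Promoter fold enrichment over local background (log axis) of each member (point) by complex and library, with the median of members listed in all 6 libraries as a bar. Complex IV has the widest range, and the medians of WT replicate 3 are the highest in each complex.

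The list position is the rank of the chosen summit by p within its library, from 0% for the best line to 100% for the last. It is not independent of fold enrichment, which chose the summit and rests on the same pileup and background as p. The members' median position was 2.92%, 2.70% and 2.83% in WT and 2.93%, 3.15% and 3.33% in DKO. Every DKO position thus lay behind every WT position, although DKO replicate 1 and WT replicate 1 nearly coincided. The mean difference was 0.319 percentage points, and 0.0965 points when only summits within 500 bp were used. The median over all genes moved the other way, from 8.17 ± 0.304% to 7.74 ± 0.296%. In ribosomal protein genes it went from 2.82 ± 0.0128% to 3.28 ± 0.0274%, in the same direction as in the members. Among members, 67.1 ± 1.48% were within the best 5% of lines in WT and 62.4 ± 2.67% in DKO, against 38.8 ± 0.836% and 39.9 ± 0.574% of all genes.

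The complexes differed in position. By the mean of the libraries' medians, complex V stood first, at 2.16 ± 0.129% in WT and 2.28 ± 0.311% in DKO, and 14 of its 17 genes had a median position over the libraries in the best 5%. Complex III followed at 2.34 ± 0.725% and 3.11 ± 1.06%, and complex II at 2.81 ± 0.713% and 3.54 ± 0.426%. In WT replicates 1 and 3 and DKO replicate 1, however, complex III was ahead of complex V, and in WT replicate 2 and DKO replicates 2 and 3 complex II was ahead of complex III. Complex I was ahead of complex II in WT replicate 3, and ahead of complexes II and III in DKO replicate 3. For complexes III and II, with 9 and 4 genes, the WT and DKO positions overlapped. Complex I stood at 3.76 ± 0.254% and 3.76 ± 0.577%. Complex IV was last at 6.88 ± 1.66% and 7.06 ± 0.862%, with 5 of its 12 genes in the best 5% and 4 beyond 20%.

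**Figure D3:**
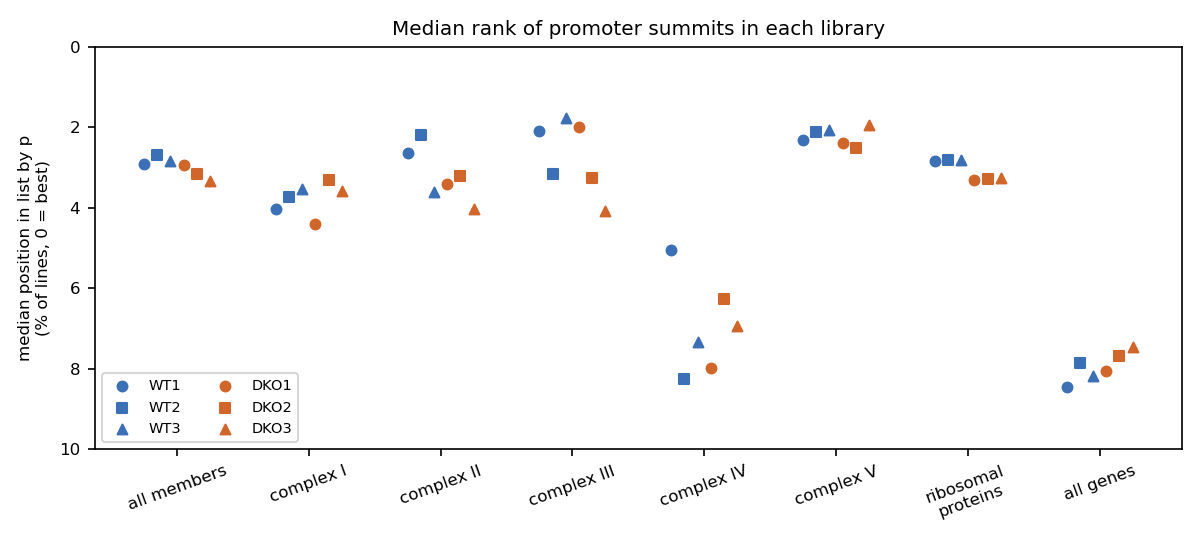
Median position of promoter summits in the list of each library (percent of lines by p, 0 is best, axis reversed) for all members, each complex, ribosomal protein genes and all genes. Blue symbols are WT and orange symbols DKO replicates, and complex IV lies between 5.05% and 8.26% where complex V lies between 1.93% and 2.52%.

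In all, 17 of 78 members (21.8%) had a median position in the best 1%, against 14.0% of all genes and 20.5% of ribosomal protein genes. The best was Atp5g1, 1 of the 3 genes for subunit c, the proton-carrying ring of ATP synthase. Its summit stood at line 15, 50 and 114 in WT and at line 33, 181 and 66 in DKO, with fold enrichments of 24.4, 21.7 and 23.1 and of 24.7, 20.98 and 22.3. The genotypes overlapped on both scales. Ndufs8, an iron-sulfur subunit of complex I, came next, at line 120, 165 and 88 in WT and 177, 271 and 375 in DKO, behind WT in every library. The other subunit c genes were lower, with Atp5g3 having the lowest mean fold enrichment of complex V (12.5, against 22.9 for Atp5g1).

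Within each complex, promoters differed in level. The highest and the lowest of complex I were Ndufv1, the NADH-binding subunit, with a mean of 24.3 over 6 libraries, and Ndufa1, a small accessory subunit, with 7.11. Ndufv1 was listed at 25.5, 23.7 and 26.9 in WT and at 23.2, 26.2 and 20.3 in DKO, and Ndufa1 at 7.01, 6.83 and 8.51 and at 5.87, 8.22 and 6.23. Both pairs of groups overlapped. In complex II the membrane anchor Sdhc was highest (20.5) and the iron-sulfur subunit Sdhb lowest (11.7), and in complex III the small accessory subunits Uqcrb (22.9) and Uqcrq (13.2). In complex IV, Cox7c stood at 25.2 and Cox7b at 4.89, the lowest mean of any member listed in all 6 libraries. Cox7b was listed at 4.94, 4.92 and 5.12 in WT and 4.57, 4.68 and 5.13 in DKO, which overlapped.

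Catalytic and electron-carrying core subunits were listed in all libraries. Ndufs1, an iron-sulfur subunit of complex I, lay between 11.1 and 15.9 over the 6 libraries. Sdha, the flavoprotein that oxidizes succinate, lay between 13.5 and 17.6. In complex III, the Rieske protein gene Uqcrfs1 lay between 9.78 and 17.7 and Cyc1, for cytochrome c1, between 16.8 and 28.2. The ATP synthase genes Atp5a1 and Atp5b, for the alpha and beta subunits, ranged from 13.8 to 18.3 and from 17.8 to 19.2, and Atp5c1, for the gamma subunit of the stalk, from 13.3 to 15.6. Cox4i1, the common isoform of subunit 4, was lower, at 10.1, 6.05 and 10.4 in WT and 6.33, 8.27 and 6.44 in DKO. Each of the core genes named in this group had overlapping WT and DKO values, on the deposited scale and after normalization.

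Members' summits were close to the start site. The median distance was 60 bp, against 103 bp over all genes tested and 63 bp in ribosomal protein genes, and 74.7% of members lay within 100 bp, against 49.3% of all genes and 73.4% of ribosomal protein genes. The peak interval had a median width of 683.5 bp, against 541 bp. In 25 of 79 members (31.6%) the same summit was also the best one of another gene, against 15.2% of all genes and 17.7% of ribosomal protein genes, and each partner lay on the opposite strand and was no member. This was so for 13 genes of complex I, 3 of the 4 of complex II, 3 of complex III, 5 of complex V and only Cox4i1 of complex IV. Values of such pairs are 1 measurement and cannot be divided between the genes. Partners were, for example, Mrpl47 (with Ndufb5), Mrpl36 (with Ndufs6), Timm8b (with Sdhd), Rps28 (with Ndufa7) and Eef1b2 (with Ndufs1). Atp5j shared its summit with Gabpa, the gene of the DNA-binding GABP subunit, at 17.0, 16.5 and 17.4 in WT and 16.4, 16.6 and 14.3 in DKO. Other partners were Rnf113a1 (Ndufa1), Vmac (Ndufa11), Ik (Ndufa2), Asb15 (Ndufa5), Morn5 (Ndufa8), Rbm10 (Ndufb11), Fam126b (Ndufb3), Tatdn1 (Ndufb9), Kbtbd4 (Ndufs3), Ccdc127 (Sdha), Zmat5 (Uqcr10), Gm10767 (Uqcrb), Lrrc41 (Uqcrh), Emc8 and Gm27021 (Cox4i1), Kin (Atp5c1), Wdr77 (Atp5f1) and Kctd2 (Atp5h).

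WT and DKO preadipocytes were then compared gene by gene. No oxidative phosphorylation promoter passed the test. Log2 fold enrichment, quantile-normalized over 14806 genes listed in at least 2 libraries, was fitted with limma for 79 members, where a library with no listed summit was given the lowest value of its list, as in Cox4i2. Among the members 0 were called at an adjusted p under 0.05, where 13 of 14806 genes (0.0878%) were called, 7 lower and 6 higher in DKO. Without scaling the genes called were 7 lower and 1 higher, and in none of the 16 alternative fits was a member called. Without WT replicate 1 limma called 0 genes, with 676 lower and 652 higher at an unadjusted p under 0.05, and without WT replicate 3 it also called 0, with 715 lower and 795 higher. At an unadjusted p under 0.05, limma gave 9 members lower in DKO (11.4% of 79, where the background was 6.13%) and 2 higher (2.53%, background 6.02%). In each of the 16 alternative fits more members were lower than higher at this level, although the counts and the background moved. Without scaling 9 were lower and 0 higher (background 6.76% and 2.08%), and with list ranks 8 and 3 (background 5.43% and 8.70%). Without the variance trend 4 were lower (5.06%, at a background of 5.63%) and 0 higher. The counts were 6 and 0 without DKO replicate 3 (background 4.81% lower), 6 and 1 without WT replicate 1 (4.60%) and 7 and 0 without WT replicate 3 (4.86%). The smallest adjusted p among members was 0.248. The median SE of a member's log2 change was 0.10.

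The log2 changes of the members were small. They ranged from −0.37 (Ndufa9, Atp5k) to 0.29 (Ndufb2). None exceeded 1 in size, as in the ribosomal protein genes and assembly factors, against 1.44% of all genes. Both ends rested partly on single libraries, since Ndufa9 was at −0.17 and Atp5k at −0.25 without DKO replicate 3, and Ndufb2 at 0.16 without WT replicate 1. The median size was 0.094, against 0.124 over all genes, 0.089 in ribosomal protein genes and 0.092 in assembly factors. Of the 79 members, 53 were below and 26 above 0. Over all genes 7245 were below and 7561 above 0, in ribosomal protein genes 45 and 34, and in 46 assembly factors 29 and 17. The members had a median change of −0.046, against 0.0037 over all genes, −0.023 in ribosomal protein genes and −0.062 in assembly factors. By complex, the median was −0.066 in complex I (26 below and 10 above 0), 0.011 in complex II and −0.015 in complex III. It was −0.091 in complex IV (10 below and 3 above 0) and −0.010 in complex V. The median of ribosomal protein genes lay between −0.036 (without WT replicate 3) and −0.0020 (without WT replicate 1) when 1 library was left out. In the same fits, the medians of complexes I and IV stayed below 0. Without DKO replicate 3, that of complex I was −0.032 and that of all members −0.028. Complex II turned to −0.038, −0.020 and −0.0083 without WT replicate 3, WT replicate 1 and DKO replicate 1. Complex V turned to 0.012 without WT replicate 1. Complex III turned to 0.051, 0.050 and 0.046 without DKO replicate 2, WT replicate 3 and DKO replicate 3. The 95% interval of the change lay within −0.86 and 0.59 for every member listed in all 6 libraries. Differences of 1 log2 unit thus lay outside the intervals of these 78 genes. The ends of this range came from Cox6b2 and Ndufb2, and the next lower bound was −0.74, of Ndufa9.

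**Figure D4:**
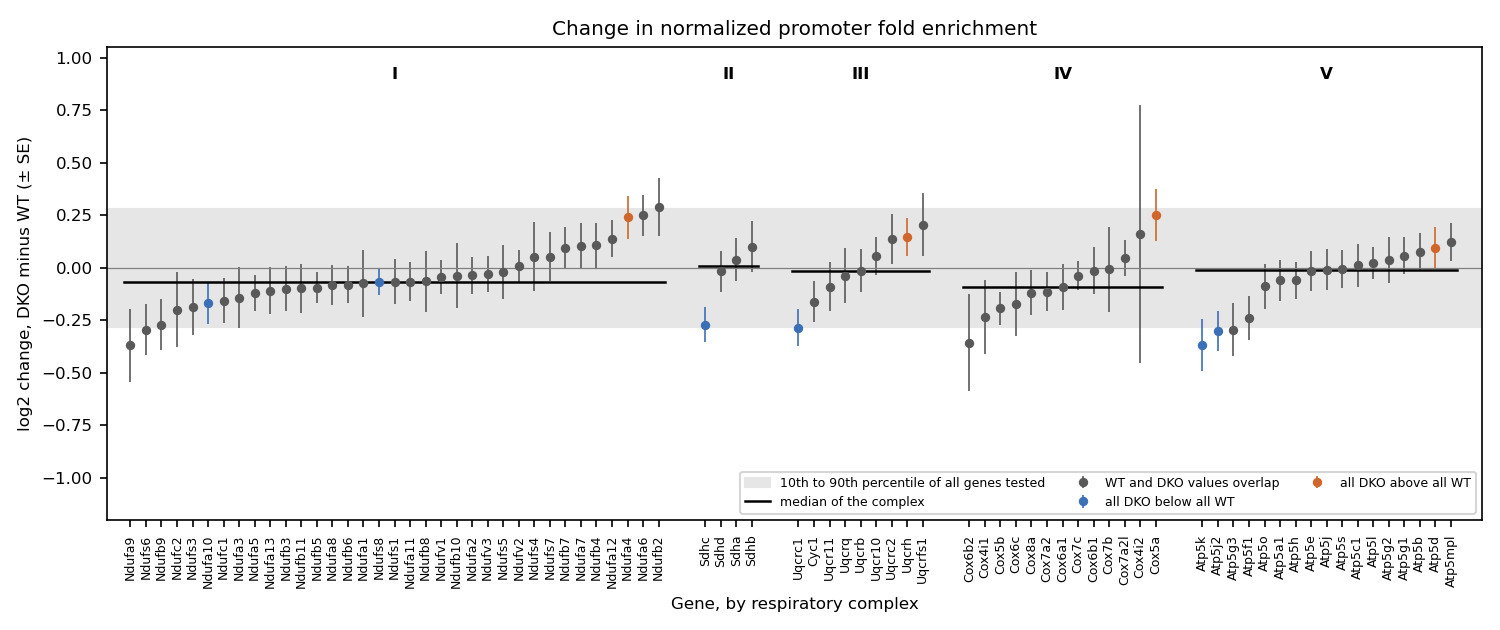
Log2 change in normalized promoter fold enrichment, DKO minus WT (vertical axis, points with SE bars, 3 libraries per genotype), of 78 of the 79 members fitted, ordered within each complex, with the median of all fitted genes of the complex as a line. Points lie between −0.37 and 0.29, mostly inside the grey band of the 10th to 90th percentile of all genes, and blue and orange points are the 10 genes whose groups do not overlap.

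After normalization, all DKO values lay below all WT values in 6 members (7.59% of 79; background 8.05%) and above them in 4 (5.06%; background 8.57%). Neither share exceeded the background. The 5 lowest and all 4 higher ones are described here, and Ndufs8 (−0.07) was the remaining one. On the deposited scale, where WT replicates 1 and 3 ran higher than the other libraries over all genes, 10 members (12.7%; background 10.2%) lay entirely below WT and only Ndufa6 (1.27%; background 3.58%) entirely above.

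Atp5k, for subunit e at the base of ATP synthase (chr5:108433244-108434448, minus strand), was listed at 17.2, 14.6 and 20.4 in WT and at 12.6, 15.4 and 10.2 in DKO. DKO replicate 2 lay above WT replicate 2, and the groups separated only after normalization. The log2 change was −0.37 ± 0.12 (SE; limma adjusted p = 0.27). Its promoter holds the NRF1 palindrome shown above.

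Atp5j2, for subunit f (chr5:145183698-145192062, minus strand), was listed at 17.7, 16.7 and 21.4 in WT, and the DKO values were 15.4, 13.8 and 13.2. Every DKO library lay below every WT library on both scales. The log2 change was −0.30 ± 0.09 (SE; limma adjusted p = 0.25).

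Uqcrc1, for core protein 1 of complex III (chr9:108936633-108949623, plus strand), had 20.9, 18.1 and 22.5 in WT and 16.2, 17.2 and 13.8 in DKO, again without overlap on either scale. The change of −0.29 ± 0.09 (SE) had a limma adjusted p of 0.248, the smallest among the members. Its list position was 3.56%, 3.15% and 4.18% in WT and 5.89%, 4.98% and 7.56% in DKO.

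Sdhc, for the membrane anchor of succinate dehydrogenase (chr1:171127165-171150603, minus strand), was at 24.4, 19.4 and 25.4 in WT and 18.7, 19.2 and 15.8 in DKO. The values did not overlap on either scale, although WT replicate 2 and DKO replicate 2 were close. The change was −0.27 ± 0.08 (SE; limma adjusted p = 0.25). The other 3 genes of complex II had changes of 0.04 (Sdha), 0.10 (Sdhb) and −0.02 (Sdhd).

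Ndufa10, an accessory subunit of complex I (chr1:92439010-92473860, minus strand), was at 15.6, 14.1 and 19.3 in WT and 14.7, 13.2 and 13.0 in DKO. DKO replicate 1 exceeded WT replicate 2, and after normalization DKO replicate 1 (3.91 on the log2 scale) nearly reached WT replicate 1 (3.92). The change was −0.17 ± 0.10 (SE; limma adjusted p = 0.54).

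Among higher values, Cox5a (chr9:57521274-57532426, plus strand), a nuclear subunit of cytochrome c oxidase, was listed at 8.96, 10.02 and 11.2 in WT and at 10.7, 11.6 and 11.5 in DKO. WT replicate 3 exceeded DKO replicate 1 before normalization. The change was 0.25 ± 0.12 (SE; limma adjusted p = 0.44). Ndufa4 (chr6:11900292-11907497, minus strand), placed in complex I by its symbol and also known as a subunit of cytochrome c oxidase, was at 15.1, 12.7 and 15.1 in WT and at 14.7, 17.7 and 15.0 in DKO. Its groups overlapped on the deposited scale, with a change of 0.24 ± 0.10 (SE; limma adjusted p = 0.37).

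Uqcrh (chr4:116066965-116075071, minus strand), whose promoter is printed above, was at 15.4, 13.1 and 17.1 in WT and at 15.5, 16.2 and 15.3 in DKO. Its change was 0.15 ± 0.09 (SE; limma adjusted p = 0.55). Atp5d (chr10:80138632-80145818, plus strand), for the delta subunit of the F1 stalk, was at 13.0, 11.8 and 14.7 and at 13.4, 13.0 and 13.1, with a change of 0.09 ± 0.10 (SE; limma adjusted p = 0.76). Both overlapped before normalization, and Atp5d was at −0.046 when pileups replaced fold enrichment.

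**Figure D5:**
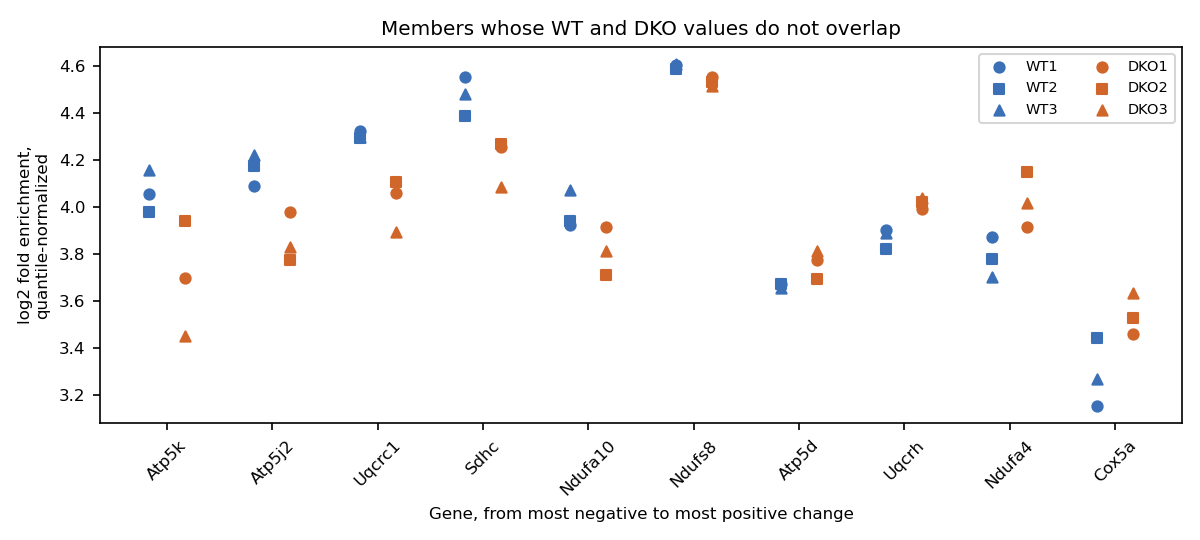
Quantile-normalized log2 fold enrichment (vertical axis) of the 10 members whose WT (blue) and DKO (orange) values do not overlap, 1 symbol per library. Sdhc and Uqcrc1 show clear gaps, whereas in Ndufa10 and Atp5d single libraries of the genotypes nearly touch.

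The promoter motifs were also set beside the changes, as a description. The 19 members with NRF1 letters had a median change of −0.066 (14 below and 5 above 0), and the 44 without them −0.023 (26 below and 18 above 0). The 16 members with ETS/GABP letters had a median of −0.038, as had the 47 without. The 7 members with YY1 letters had a median of −0.16, with 5 below and 2 above 0, and the 56 without −0.038 (35 below and 21 above 0). The members with these letters included Atp5j2 (−0.30), Ndufa9 (−0.37) and Ndufs6 (−0.29), but also Ndufs4 (0.05) and Ndufs7 (0.05). Ndufa9 was listed at 12.8, 11.6 and 12.1 in WT and at 9.26, 11.6 and 6.43 in DKO, where DKO replicate 2 overlapped WT (limma adjusted p = 0.42). The 5 members with TATAAA had a median of 0.053, with 1 below and 4 above 0, and the 58 without −0.052.

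The genes that assemble and regulate the chain were examined in the same fit. Of 47 assembly factors 46 were fitted and limma called 0, with 3 lower (6.52%, where the background was 6.13%) and 2 higher (4.35%, background 6.02%) at an unadjusted p under 0.05. Of 10 genes for cytochrome c and ubiquinone synthesis limma called 0. At an unadjusted p under 0.05, 1 was lower (Pdss1, 10%, background 6.13%) and 1 higher (Coq9, 10%, background 6.02%). Of 15 regulators 14 were fitted and limma called 0, with 1 lower (Esrra, 7.14% of the 14) and none higher at that level, against the same background.

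Esrra, for the receptor ERR alpha, was listed at 19.05, 16.2 and 20.1 in WT and at 15.4, 15.1 and 13.5 in DKO. All DKO values lay below all WT values, with a change of −0.24 ± 0.09 (SE; limma adjusted p = 0.31). Ppargc1a, for the coactivator PGC-1 alpha that raises mitochondrial gene expression, was lower in level, at 5.23, 7.18 and 9.13 in WT and at 6.80, 8.77 and 7.78 in DKO. Its groups overlapped, as did those of Ppargc1b, between 4.62 and 7.85 over the 6 libraries. Nrf1 lay between 5.60 and 6.99, Tfam, for the mitochondrial transcription factor, between 17.7 and 24.1, Yy1 between 18.2 and 23.9, and Nfe2l2 between 13.2 and 16.3. Perm1, a muscle regulator, was listed in WT replicate 2 only.

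Markers of other cell types were set beside these values. Of the 3 blood cell markers fitted, Cd68 was listed in all 6 libraries with a change of 0.24, Itgam in all DKO and no WT libraries, and Adgre1 in 2 DKO libraries only. Of those not fitted, Ptprc was listed in WT replicate 1 only (3.504) and Cd3e in DKO replicate 3 only (3.605). Limma called 0 of the 3 fitted, with 1 (Itgam) higher at an unadjusted p under 0.05, where the background was 6.02%. Summed over all 6 markers of that list, with an unlisted promoter counted as 0, fold enrichment was between 5.38 and 8.29 in WT. It was between 12.7 and 15.6 in DKO. The sums rest on 2, 1 and 1 listed markers in WT and 3 in each DKO library, so they partly count which promoters reached the list. Of the endothelial markers, Pecam1 was at 16.9, 12.2 and 17.2 in WT and 11.1, 11.8 and 10.3 in DKO, without overlap, with a change of −0.37 (limma adjusted p = 0.24). The summits of Pecam1 and Itgam are also the best ones of Milr1 and Gm49368, so these values are not of the markers alone. Cdh5 was listed in no WT library and at 3.91, 7.09 and 4.26 in DKO (limma adjusted p = 0.12). The sum over the 4 endothelial markers, formed in the same way, ranged from 33.3 to 42.1 in WT and from 33.5 to 40.3 in DKO, which overlapped. It rests on 3 listed markers in each WT and 4 in each DKO library. The part of either list in the members' values was not tested.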

How the data were processed

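ATAC-seq libraries of 50000 cells were prepared from 3 WT and 3 DKO cultures. Per the study's methods and the submitters' processing notes, reads were processed with bcl2fastq 2.17 and cutadapt 1.18 and aligned to mm10 with Bowtie2 2.3.4.3, and duplicates and mitochondrial reads were removed. The authors called peaks per library with MACS2 (version not given in the sources used here). Names of the deposited lists give a p of 0.01 and a limit of 300000 peaks, while the methods give default settings. The deposited fold enrichment is a ratio of the pileup plus 1 to the local background plus 1. The deposited p and q values are −log10 values. Whole-number pileups could be recovered for 100% of promoter values (tolerance 0.001 in −log10 p). The lists are limited in length, so an unlisted promoter was below the end of a list, not closed, and read totals were not analysed here.

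Each gene was given its highest fold enrichment within 1 kb of a start site (41219 sites, GENCODE M21 basic set). Genes on chromosomes 1 to 19 and X listed in at least 2 of 6 libraries were compared with limma 3.58.1 in R 4.3.3 (log2, quantile normalization, eBayes with trend, two-sided, Benjamini-Hochberg over 14806 genes, threshold 0.05). No count model was used. Python 3.11.15 with pandas 2.3.3 and numpy 2.4.6 served for tables. The fit was tested on simulated data. Intervals use the moderated degrees of freedom. Members, gene lists and motifs were chosen with earlier results of these data known, so lists are described without a test. Genes were named by rule, as members called, the up to 5 most negative and 5 most positive changes among members whose normalized groups do not overlap, the highest and lowest member of each complex, unlisted members, isoforms of restricted tissues, core subunits, members that share a summit, and regulators. Others, such as Ndufa9 and Ndufb2, were named after their values were seen. Printed sequences come from RefSeq (GRCm38.p6). Alternatives changed the scaling, the variance trend, the list filter, the distance, the choice of summit, the measure and the libraries. A few genes are not reported here by name.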

Additional observations from a re-analysis of the deposited data

How the results depend on the processing

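In all 16 alternative fits limma called 0 members in either direction, with a lowest adjusted p of 0.136 (Ndufa6, without WT replicate 2), and the members' median change stayed below 0, from −0.130 to −0.028. The numbers of all genes called, 7 lower and 6 higher, became 45 and 48 with eBayes without trend, 16 and 10 with the summit pileup, and 4 and 2 with summits within 500 bp. No scaling gave 1 higher, and genes listed in all 6 libraries 3 higher. Leaving out 1 library gave between 0 and 8 lower and between 0 and 3 higher. The 11 members with an unadjusted p under 0.05 became 4 without trend and between 6 and 12 when a library was left out. The background was 6.13% lower and 6.02% higher in the main fit, and 5.63% and 5.50% without trend. When a library was left out it was between 4.60% and 6.54% lower and between 4.16% and 7.29% higher. Without scaling the median of all genes was −0.076 and medians were −0.130 for the members, −0.16 for complex I, −0.080 for complex II, −0.10 for complex III, −0.18 for complex IV, −0.11 for complex V and −0.12 for ribosomal protein genes. Pileups gave −0.095 for the members and −0.12 for complex I, and list ranks −0.096 for complex I and −0.043 for complex IV (in normal scores). Leaving out a library moved complex I between −0.078 and −0.032, II between −0.038 and 0.072, III between −0.087 and 0.051, IV between −0.10 and −0.080 and V between −0.045 and 0.012. The members' list position, DKO minus WT, was 0.0965 within 500 bp. Hmgn2 lay between −2.41 and −2.34 when a library was left out, and Hmgn1, at 0.08, turned to −0.0054 without scaling, lay between −0.053 and 0.20 when a library was left out, and was 0.30 with pileups. Atp5d turned to −0.046 with pileups. The causes were not tested.

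The replicate numbers pair no samples by the labels, and the deviations of same-numbered libraries correlated at 0.0409, 0.0456 and −0.00855. With the replicate block limma called 6 genes lower, 1 higher and 0 members. Depth was not varied. Cox4i2 was listed only in the deepest and the shallowest library.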
